A study of Meriones unguiculatus with 18 samples.

Results

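Ehhadh, ACOT1, Cyp4a10 and Acsm1 encode liver enzymes that activate, release or oxidise fatty acids. They were taken by name, in any letter case, from a table of 13172 assembled liver transcripts (unigenes) of the Mongolian gerbil, in which 3767 unigenes carried 3187 distinct gene names. All 4 names were found: Ehhadh, ACOT1 and Cyp4a10 had 1 unigene each, and Acsm1 had 2, of which the higher was used and the other is described beside it. The label also speaks of ketogenesis, which none of the 4 enzymes carries out.

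The gerbils were male, and their liver RNA was sequenced after poly(A) selection. Animals on a normal diet (ND) received ordinary feed and water freely. Those on a high-fat diet (HFD) received feed of which 80.5% was the ordinary feed, with cholesterol at 2%, bile salt at 0.5%, egg yolk powder at 10% and lard bile, as the label words it, at 7%. Diets lasted 4, 8 or 16 weeks, with 3 libraries for each of the 6 groups, and the groups used here are ND 4W, HFD 4W, ND 16W and HFD 16W. All samples carry the tag Z:ZCAL, and the sources used here do not give the age of the animals. The treatment protocol counts 36 gerbils, 6 for each group, while the design text counts 18, so whether a library is 1 animal or a pool is not known, and p-values measure the spread between libraries.

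Fatty acids enter oxidation as acyl-CoA esters, which acyl-CoA synthetases make and acyl-CoA thioesterases split again. Mitochondria shorten most of them by beta-oxidation and turn the acetyl-CoA into ketone bodies in the fasting liver, while peroxisomes take very long chains and dicarboxylic acids. Those dicarboxylic acids come from omega-oxidation in the endoplasmic reticulum, which begins with enzymes of the Cyp4a family. In mouse liver the genes Ehhadh, Acot1 and Cyp4a10 are classical targets of the nuclear receptor PPAR-alpha, which binds DNA with its partner RXR.

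The values are normalized expression levels with no stated unit. All 18 libraries shared nearly 1 set of sorted values (the largest relative gap was 0.01 over the top 3000 unigenes). A level is thus set by the rank of a unigene in its library, and sequencing depth is unknown. Levels of different genes are not compared as amounts of RNA. Where marker levels are summed below, the sum is weighted toward the highest-ranked markers and is no measure of cell number. The libraries of 8 weeks are left out because their order of unigenes had a Pearson r of 0.00 to 0.03 with the other libraries, against 0.77 to 0.86 between libraries of the same group at 4 and 16 weeks. ND libraries had 3910 to 5273 unigenes at their lowest value (not detected) and HFD libraries 2053 to 3012. Which unigenes were detected thus ran with diet, and the effect of the diet and that of the library set cannot be told apart. All 4 enzymes were detected in all 12 libraries. Of the 12 hepatocyte markers listed, 5 were in the table and 3 (ALB, Apob and Cps1) were detected in every library. Apoa2 and AHSG were detected in the same 2 libraries, HFD 4W 1 (10.3 and 12.3) and HFD 16W 1 (6.05 and 8.48).

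The first comparison, of HFD with ND livers at 4 weeks, asks about the early response of the liver, and 1 of the 4 enzymes, Acsm1, fell. After 16 weeks all 4 were lower on HFD, by 3.79-fold for Ehhadh, 5.41-fold for ACOT1, 6.20-fold for Cyp4a10 and 12.7-fold for Acsm1. Between 4 and 16 weeks all 4 fell in HFD livers, and none was called in ND livers. A unigene was called when its limma Benjamini-Hochberg adjusted p, over the 9487 unigenes whose mean reached 1, was under 0.05. Of these unigenes, 7.22% were called lower on HFD at 4 weeks and 19.9% at 16 weeks. Over time 7.78% were called lower in HFD livers, and 0.379% were called in either direction in ND livers. Folds and log2 differences are on the log2(value + 1) scale.

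**Figure D1:**
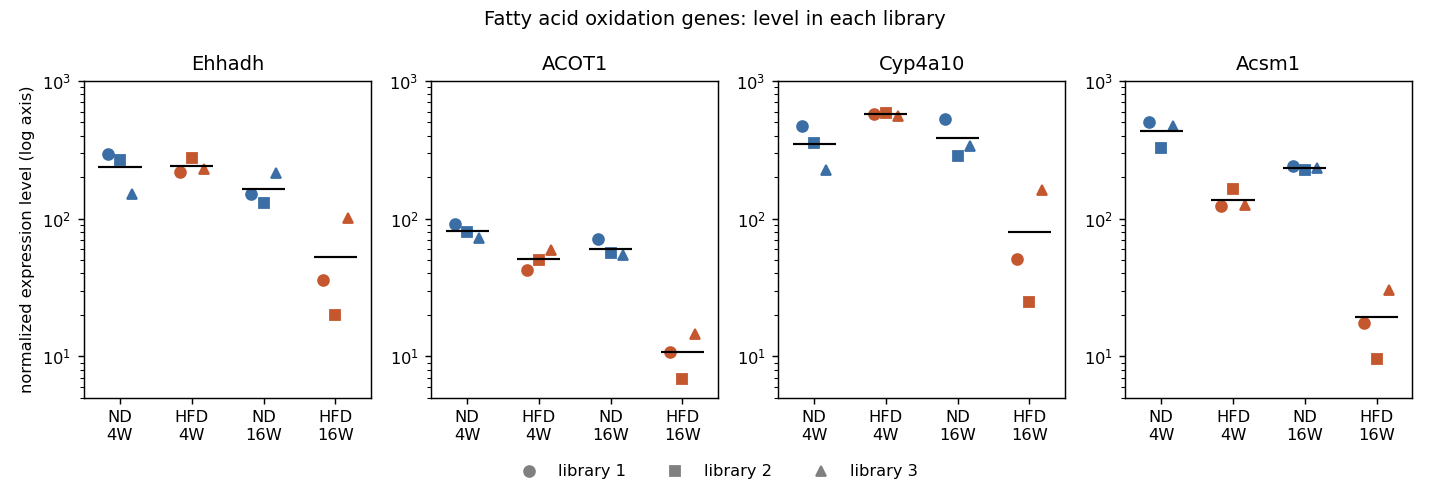
Normalized expression level (log axis) of each of the 4 genes in the 12 libraries of 4 and 16 weeks; symbols are libraries 1 to 3 and horizontal lines are group means (n = 3). HFD 16W lies below every other group for all 4 genes, and HFD 4W lies below ND 4W for ACOT1 and Acsm1 but not for Ehhadh.

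Acsm1 (TRINITY_DN35921_c4_g10) is a mitochondrial acyl-CoA synthetase that activates medium-chain fatty acids, known chiefly from mouse and human tissue. Its level was 504, 328 and 474 in the ND 4W libraries 1 to 3, and 123, 164 and 125 in the HFD 4W libraries. The diets did not overlap at 4 weeks, and every HFD library was far below the lowest ND library. The means were 435 ± 94.1 in ND and 137 ± 23.5 in HFD (mean ± SD, n = 3 each), a 3.13-fold fall (log2 -1.65, SE 0.32, limma adjusted p = 0.00647). At that time 7.22% of the 9487 unigenes were called lower, and 19.2% had every HFD library below every ND library.

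Acsm1 stood at 240, 226 and 232 in the ND 16W libraries and at 17.6, 9.58 and 30.4 in the HFD 16W libraries. The groups were far apart, with the HFD libraries at 7.57%, 4.12% and 13.1% of the ND mean of that time. The fall had a log2 difference of -3.67 (SE 0.32, 95% interval -4.37 to -2.96, limma adjusted p = 1.13e-05), and only 0.264% of the unigenes tested had a difference as low or lower. In rank, the unigene went from places 87 to 92 of its library in ND 16W to places 450 to 1197 in HFD 16W.

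The other unigene named Acsm1 (TRINITY_DN35921_c4_g6) came from the same assembly cluster at a far lower level. It had 4.36, 7.43 and 4.87 in ND 4W and 5.88, 5.67 and 6.69 in HFD 4W, so the diets overlapped (log2 0.14, SE 0.24, limma adjusted p = 0.772). In ND 16W it had 6.16, 4.47 and 4.33, and in HFD 16W 0.351, 0.133 and 0.616, with no overlap (log2 -2.13, SE 0.24, limma adjusted p = 5.44e-05). Of all unigenes tested, 28.2% lay apart in this direction at 16 weeks. Thus both unigenes fell at 16 weeks, and at 4 weeks only the main one was called; the difference between the 2 was not tested. Acsm3, Acsm4 and Acsm5 lie beside Acsm1 in the gerbil annotation, and an assembly can split or merge reads of such relatives, so the values are uncertain as to the copy.

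ACOT1 (TRINITY_DN35431_c2_g1) is a cytosolic thioesterase that frees long-chain fatty acids from coenzyme A. Its level was 91.2, 79.6 and 72.1 in ND 4W and 42.7, 50.2 and 59.0 in HFD 4W. Although no HFD library reached the lowest ND library, the difference did not pass over all unigenes (means 81.0 ± 9.62 and 50.6 ± 8.14, log2 -0.67, SE 0.23, 95% interval -1.17 to -0.17, limma adjusted p = 0.0794). Of all unigenes tested, 19.2% lay apart in the same way at 4 weeks, with every HFD library below every ND library.

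This difference was near the threshold. With HFD 16W 2 left out it was called (adjusted p = 0.0286), as with HFD 16W 3 left out (0.0439); both enter only through the shared estimate of the spread. It was also called in a limma fit of the 4-week libraries alone (adjusted p = 0.0422) and when a mean of 5 was required (0.0469). With the library number as a block within HFD, where same-numbered libraries deviated together, it was called too (adjusted p = 0.0346).

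At 16 weeks ACOT1 was at 70.7, 56.2 and 54.1 in ND and at 10.7, 6.86 and 14.5 in HFD. The groups were well apart, and the 3 HFD libraries had 17.7%, 11.4% and 24.1% of the ND mean. The log2 difference was -2.44 (SE 0.23, 95% interval -2.93 to -1.94, limma adjusted p = 1.74e-05), with the smallest SE of the 4 genes. The name is in human spelling and is not a symbol of the gerbil annotation used for names, and Acot1 has near-identical neighbours in mouse, so it may stand for another gene of that family.

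Cyp4a10 (TRINITY_DN34860_c2_g1) is, in mouse, a microsomal cytochrome that hydroxylates the far end of fatty acids, the start of omega-oxidation. It had 474, 353 and 226 in ND 4W and 572, 588 and 557 in HFD 4W. All HFD libraries were above all ND libraries, as for 11.9% of all unigenes, but the ND libraries spread widely and the difference was not called (means 351 ± 124 and 572 ± 15.2, log2 0.77, SE 0.54, 95% interval -0.41 to 1.94, limma adjusted p = 0.398). Its rank in the 3 HFD 4W libraries was 32 to 34, and in the ND 4W libraries 41 to 92.

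At 16 weeks the order of the diets was the opposite. ND 16W libraries had 528, 286 and 338, and HFD 16W libraries had 50.6, 24.6 and 163. No HFD library reached the lowest ND library, but library 3 kept 42.4% of the ND mean, against 13.2% and 6.41% in libraries 1 and 2. The log2 difference was -2.63 (SE 0.54, 95% interval -3.81 to -1.45, limma adjusted p = 0.00283). Without HFD 16W 2 it was -2.02 (adjusted p = 0.0089) and without HFD 16W 3 it was -3.36 (adjusted p = 0.000119), so the size, though not the call, rests on these 2 libraries. Cyp4a genes are close copies of each other, so this value too is uncertain as to the copy.

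Ehhadh (TRINITY_DN35357_c1_g5) is the peroxisomal bifunctional enzyme, which carries out the hydration and dehydrogenation steps of peroxisomal beta-oxidation. Its level was 295, 267 and 150 in ND 4W and 218, 278 and 229 in HFD 4W. The HFD libraries lay within the range of the ND libraries (means 237 ± 76.6 and 242 ± 31.8, log2 0.08, SE 0.47, 95% interval -0.95 to 1.10, limma adjusted p = 0.945). Changes of any size within that interval, in either direction, are thus not excluded by these libraries.

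In ND 16W Ehhadh had 150, 130 and 215, and in HFD 16W it had 36.1, 19.9 and 101. The highest HFD library was below the lowest ND library, at 61.0% of the ND mean, and libraries 1 and 2 were at 21.8% and 12.1%. The log2 difference was -1.92 (SE 0.47, 95% interval -2.95 to -0.89, limma adjusted p = 0.00791), and 7.38% of the unigenes tested had one as low or lower. It was -2.54 without HFD 16W 3 (adjusted p = 0.000361).

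All 4 genes were thus called lower at 16 weeks, where 19.9% of the unigenes were called lower and 15.3% higher. Their median log2 difference was -2.53, beside -0.12 over all unigenes tested. In each of the 4 the HFD 16W and ND 16W libraries did not overlap, as for 28.2% of all unigenes in the same direction. When only the 3377 unigenes found in every library are counted, as these 4 were, 27% were called lower. At 4 weeks 1 of the 4 was called, with a median of -0.30 beside -0.03 over all unigenes.

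**Figure D2:**
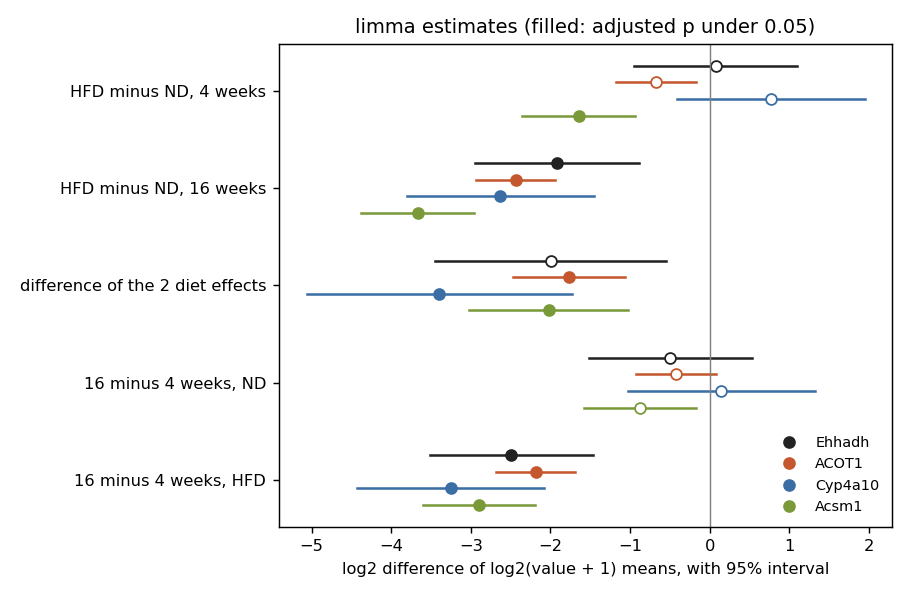
Estimated log2 differences with 95% intervals (lines) for 5 contrasts of group means (n = 3 libraries each); filled circles had a limma adjusted p under 0.05. Diet effects at 16 weeks and changes over time in HFD lie below 0 for all 4 genes, whereas the estimates at 4 weeks run from -1.65 for Acsm1 to 0.77 for Cyp4a10.

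Whether the diet effect itself differed between the times was tested as the diet difference at 16 weeks minus that at 4 weeks. It was called for Cyp4a10 (log2 -3.40, SE 0.76, limma adjusted p = 0.0167), Acsm1 (-2.02, SE 0.46, adjusted p = 0.0171) and ACOT1 (-1.76, SE 0.32, adjusted p = 0.00711), where 4.61% of unigenes were called in this direction. For Ehhadh it was -1.997 (SE 0.66, limma adjusted p = 0.0845), which did not pass; it was called without HFD 16W 3 (adjusted p = 0.00566). Without the HFD libraries numbered 1 the calls for Cyp4a10 (adjusted p = 0.0819) and Acsm1 (0.0678) were lost, with log2 differences of -3.29 and -2.11.

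In HFD livers all 4 genes fell from 4 to 16 weeks, a comparison within the diet. Cyp4a10 fell 9.54-fold (log2 -3.25, SE 0.54, limma adjusted p = 0.00147) and Acsm1 7.47-fold (log2 -2.90, SE 0.32, adjusted p = 0.000168). Ehhadh fell 5.62-fold (log2 -2.49, SE 0.47, limma adjusted p = 0.00323) and ACOT1 4.55-fold (log2 -2.19, SE 0.23, adjusted p = 0.000116). Of all unigenes 7.78% were called lower over time in HFD. Between libraries 2 and 3 of HFD 16W the size again moved: without library 2 the change was -2.64 for Cyp4a10 and -1.97 for Ehhadh, and without library 3 it was -3.98 and -3.12.

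In ND livers 0 of the 4 were called over the same time (limma), where 0.379% of all unigenes were called in either direction, and 1 had an unadjusted p under 0.05. That 1 was Acsm1, whose ND 16W libraries (226 to 240) lay below all ND 4W libraries (328 to 504; log2 -0.88, SE 0.32, 95% interval -1.58 to -0.17, limma adjusted p = 0.201). ACOT1 had a log2 difference of -0.42 (SE 0.23), Ehhadh -0.49 (SE 0.47) and Cyp4a10 0.15 (SE 0.54).

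The order of the 4 group means differed between the genes. For Acsm1 it was ND 4W, ND 16W, HFD 4W and HFD 16W, with no overlap between neighbours. ACOT1 had the same order, but the libraries of ND 16W and HFD 4W overlapped (means 60.3 and 50.6). Cyp4a10 was highest in HFD 4W (572), followed by ND 16W (384) and ND 4W (351), whose libraries overlapped. For Ehhadh the 3 highest groups, HFD 4W (242), ND 4W (237) and ND 16W (165), overlapped with their neighbours. HFD 16W was last for every gene, with no overlap with the group above it. The share of all unigenes with such orders over 4 groups was not computed. At 16 weeks alone, 28.2% of all unigenes had every HFD library below every ND library.

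Within HFD 16W the 3 libraries kept the same order for all 4 genes, with library 2 lowest and library 3 highest. Markers of other cell types differed between these libraries as well. The summed level of the 4 stellate cell markers in the table, of 10 listed, was 688, 1541 and 673 in libraries 1 to 3, against 14.9 to 22.6 in ND 16W. For the 4 macrophage markers of 12 listed it was 1721, 1870 and 1497, against 32.8 to 48.3 in ND 16W. Most of that sum was Gpnmb, at 1522, 1522 and 1263 in HFD 16W. Cd68 was at 168, 318 and 200 and Itgax at 30.2, 29.0 and 31.7, whereas the macrophage gene Cd5l was near 0 (0.0356, 0.141 and 1.89).

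Hepatocyte markers did not move as 1 in those libraries. ALB, serum albumin, was at 8090, 5760 and 28764 in HFD 16W libraries 1 to 3. In all ND 16W libraries it was at 28764, the top value of the table. The value 8090 also stood in HFD 4W 2, so these levels are fixed steps at the top of the shared scale. The size of its change is therefore not compared with that of Cps1 or Apob. Cps1, the entry enzyme of the urea cycle, was at 496, 212 and 474 against an ND 16W mean of 863 ± 115 (SD, n = 3). Apob, the main protein of secreted lipoproteins, was at 194, 59.0 and 178, with an ND 16W mean of 124. By limma at 16 weeks the log2 difference was -1.22 for Cps1 (adjusted p = 0.02) and 0.05 for Apob (adjusted p = 0.935). For ALB the limma estimate of -1.38 (SE 1.79, adjusted p = 0.574) rests on those fixed steps and was not called.

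At 4 weeks the summed stellate markers were at 57.5 to 75.1 in HFD and 14.8 to 16.8 in ND, and the macrophage markers at 106 to 139 and 11.3 to 21.5. Cholangiocyte markers were not analysed here, and the 1 endothelial (Vwf) and 1 lymphocyte (Cd4) marker in the table stayed at or below 3.45 in every library. In whole liver, fewer hepatocytes and less RNA per hepatocyte cannot be told apart, and the part of these markers in the falls was not tested.

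**Figure D3:**
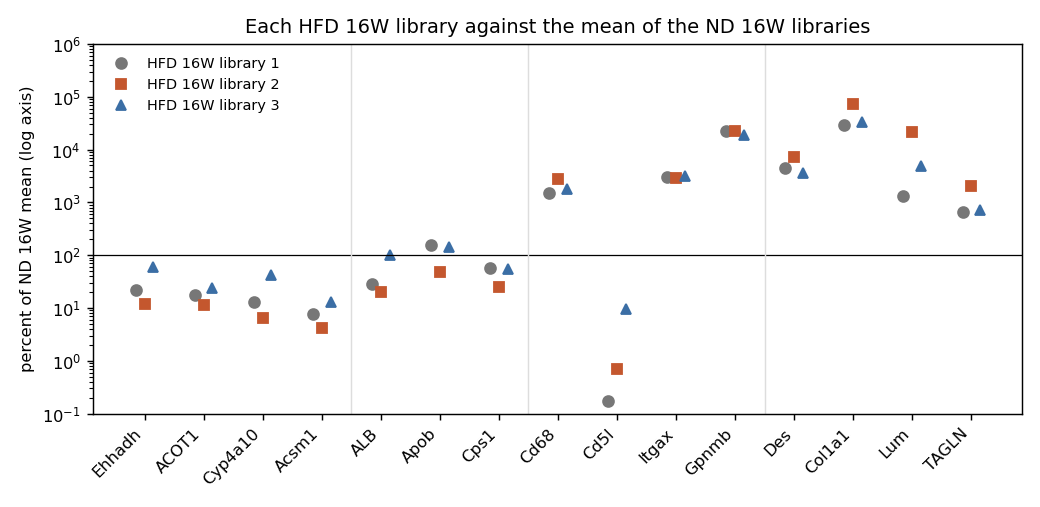
Level in each HFD 16W library as a percent of the mean of the 3 ND 16W libraries (log axis; the line marks 100%) for the 4 genes and those hepatocyte (ALB, Apob, Cps1), macrophage (Cd68, Cd5l, Itgax, Gpnmb) and stellate cell (Des, Col1a1, Lum, TAGLN) markers detected in all 12 libraries. Library 2 is lowest and library 3 highest for all 4 genes, from 4.12% for Acsm1 to 61.0% for Ehhadh. ALB was at the top value of the table in all ND 16W libraries, so its percents are steps of the shared scale.

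The wider pathway was covered by 9 lists of genes. Besides the 4 enzymes, 26 of them were used from the table and 23 could be tested; the rest are not analysed here. At 16 weeks, where 19.9% of all unigenes were called lower and 15.3% higher, 12 of the 23 were called lower, 3 higher and 8 were not called, with a median log2 difference of -0.92 beside -0.12 over all unigenes. At 4 weeks, where 7.22% of all unigenes were called lower and 4.89% higher, 1 was called lower, 3 higher and 19 were not called, with a median of 0.25 beside -0.03. Over time in HFD livers, where 7.78% of all unigenes were called lower and 9.19% higher, 11 were called lower, 3 higher and 9 were not called, with a median of -0.92 beside -0.10.

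**Figure D4:**
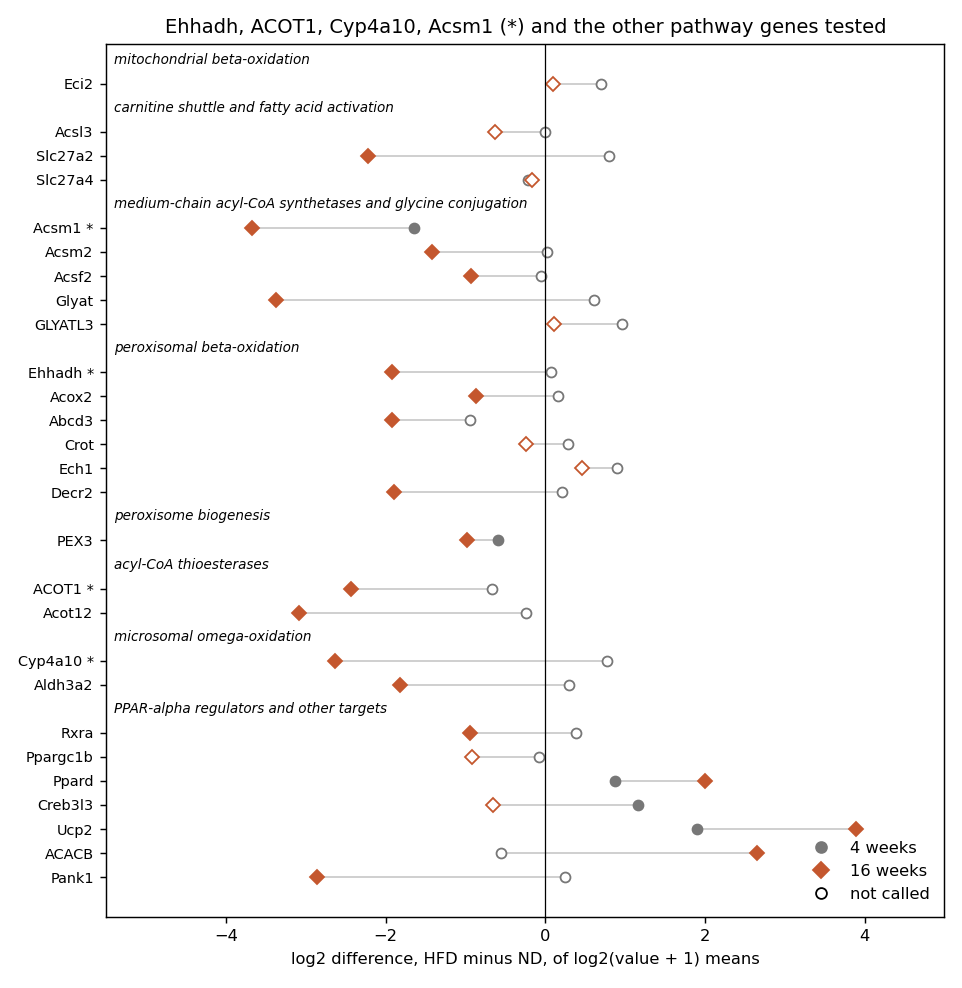
Log2 difference between HFD and ND group means (n = 3 libraries each) at 4 weeks (circles) and 16 weeks (diamonds) for the 4 genes (starred) and the 23 other pathway genes tested, by list; open symbols had a limma adjusted p of 0.05 or more. At 16 weeks 12 of the 23 were called lower, and of the 3 called higher Ucp2 had the largest difference (3.89).

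Acyl-CoA synthetases and glycine conjugation enzymes other than Acsm1 counted 4 tested genes. Of these, 3 were called lower at 16 weeks, beside 19.9% of all unigenes. At 4 weeks the limma adjusted p of the 4 ran from 0.204 to 0.976. Glyat, the mitochondrial enzyme that joins acyl-CoA to glycine, had 78.7, 76.2 and 62.5 in ND 16W and 8.23, 2.49 and 9.95 in HFD 16W. Its groups lay far apart (log2 -3.37, SE 0.40, limma adjusted p = 9.69e-05). Acsm2, a relative of Acsm1, fell by 1.42 on the log2 scale at a low level (1.88 ± 0.443 in ND and 0.0676 ± 0.0342 in HFD), and Acsf2 by 0.94. Acsf2 lost its call when ND 16W 1 (adjusted p = 0.0535) or HFD 16W 2 (0.0522) was left out. GLYATL3 was not called (log2 0.11).

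Among 3 genes of fatty acid activation and the carnitine shuttle, Slc27a2 fell at 16 weeks, when 19.9% of all unigenes were called lower. The others, Acsl3 and Slc27a4, were not called. Slc27a2 is a transporter and activating enzyme of very long chain fatty acids. Its level was 249, 249 and 304 in ND 16W and 49.9, 31.1 and 113 in HFD 16W (log2 -2.23, SE 0.39, limma adjusted p = 0.00119). At 4 weeks it was 194 ± 81.9 in ND and 319 ± 10.1 in HFD (log2 0.80, limma adjusted p = 0.217), so that, as for Cyp4a10, the estimates at the 2 times had opposite signs. The difference of its diet effect between the times was called (log2 -3.03, limma adjusted p = 0.00745).

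Of 5 peroxisomal beta-oxidation genes other than Ehhadh, 3 were called lower at 16 weeks, beside 19.9% of all unigenes. At 4 weeks the limma adjusted p of the 5 ran from 0.0531 (Abcd3, log2 -0.94) to 0.792. Abcd3 became called lower at 4 weeks under 6 of 22 other settings, among them the block within HFD (adjusted p = 0.0438). Abcd3, the peroxisomal membrane transporter of acyl-CoA, had 76.2, 96.5 and 86.5 in ND 16W and 26.7, 16.0 and 24.7 in HFD 16W (log2 -1.92, SE 0.28, limma adjusted p = 0.000387). Decr2, the peroxisomal reductase of unsaturated chains, had 124, 98.7 and 102 in ND and 26.4, 19.2 and 43.6 in HFD (log2 -1.90, SE 0.25, limma adjusted p = 0.000168). Both were lower in every HFD library than in any ND library of that time, as were 28.2% of all unigenes. Acox2, a branched-chain acyl-CoA oxidase, was at 1.12 ± 0.107 in ND and 0.160 ± 0.0452 in HFD (log2 -0.87, limma adjusted p = 0.0448), a call that was lost under 5 of 10 other settings. Crot, which makes carnitine esters for export from peroxisomes, was at 49.2 ± 7.43 in ND and 42.0 ± 10.7 in HFD and was not called (log2 -0.24). Ech1 was detected in 3 of the 12 libraries (HFD 4W 1, HFD 16W 1 and ND 16W 3) and was not called.

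PEX3, which takes part in building the peroxisome membrane, was called lower at both times. It was at 12.8 ± 0.415 in ND 16W and 6.05 ± 1.17 in HFD 16W (log2 -0.98, limma adjusted p = 0.00124). At 4 weeks it was at 11.6 ± 1.25 in ND and 7.41 ± 1.38 in HFD (log2 -0.59, limma adjusted p = 0.048), a call that was lost under 17 of 22 other settings.

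Acot12, a cytosolic acetyl-CoA thioesterase and the only other thioesterase tested, fell at 16 weeks from 103 ± 28.9 in ND to 11.7 ± 4.93 in HFD (log2 -3.08, SE 0.28, limma adjusted p = 1.62e-05). Aldh3a2, the fatty aldehyde dehydrogenase that acts after Cyp4a enzymes in omega-oxidation, fell from 51.1 ± 6.45 to 14.7 ± 6.82 (log2 -1.82, SE 0.29, adjusted p = 0.000601). At 4 weeks neither was called (log2 -0.24 and 0.30). Eci2, the 1 tested gene on the mitochondrial beta-oxidation list, which encodes an enoyl-CoA isomerase, was not called at either time. It was 852 ± 437 in ND 4W, 1414 ± 777 in HFD 4W, 232 ± 72.8 in ND 16W and 249 ± 78.4 in HFD 16W. Over time it fell in HFD livers (log2 -2.33, limma adjusted p = 0.0144). In ND livers its change was not called (log2 -1.74, limma adjusted p = 0.157). Nor was the difference of its diet effect between the times (log2 -0.59, limma adjusted p = 0.73). With 1 gene of 17 tested, this list is hardly covered, and Eci2 alone is no measure of mitochondrial beta-oxidation.

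On the list of ketogenesis and ketone export, ACAT1, Slc16a6 and SLC16A7 had means under 1 and were not tested.

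Of 7 regulators and other PPAR targets, 3 were called higher at 4 weeks, where 4.89% of all unigenes were called higher. At 16 weeks 3 were called higher and 2 lower, beside 15.3% and 19.9% of all unigenes. Rxra, the partner of PPAR-alpha on DNA, had 52.5, 45.1 and 53.4 in ND 16W and 27.0, 19.5 and 32.0 in HFD 16W (log2 -0.94, SE 0.18, limma adjusted p = 0.00167), and was not called at 4 weeks (log2 0.39). Pank1, a kinase of coenzyme A synthesis, was at 13.1 ± 4.13 in ND 16W and 0.983 ± 0.81 in HFD 16W (log2 -2.86, limma adjusted p = 0.00179). At 4 weeks it was at 2.76 ± 2.29 in ND and 2.74 ± 1.08 in HFD. Its change over time was not called in ND (log2 2.15, limma adjusted p = 0.0819) or in HFD (log2 -0.95, adjusted p = 0.282). PPAR-alpha itself is not analysed here.

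Ppard, the related receptor PPAR-delta, was called higher at both times, from 2.21 ± 0.0371 to 4.92 ± 0.674 at 4 weeks and from 1.96 ± 0.0924 to 10.95 ± 2.27 at 16 weeks (log2 0.88 and 2.00; limma adjusted p = 0.0111 and 1.91e-05). Ucp2, a mitochondrial carrier that macrophages also express, had 9.75, 10.5 and 14.0 in ND 4W and 38.5, 56.2 and 42.0 in HFD 4W. It rose further to 148, 428 and 194 in HFD 16W against 13.2, 15.9 and 14.99 in ND 16W (log2 3.89, SE 0.32, limma adjusted p = 6.42e-06). ACACB, the mitochondrial acetyl-CoA carboxylase isoform, whose product blocks fatty acid entry into mitochondria, was called higher at 16 weeks (log2 2.65, limma adjusted p = 0.000836). Only 4 of the 12 libraries had it above their lowest value. Creb3l3, a liver transcription factor of fasting, was called higher at 4 weeks (62.7 ± 17.3 in ND and 139 ± 21.3 in HFD; log2 1.15, limma adjusted p = 0.0482), a call lost under 15 of 22 other settings. At 16 weeks it was at 114 ± 14.0 in ND and 80.6 ± 47.7 in HFD and was not called, except without HFD 16W 3 (adjusted p = 0.00828).

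The genes whose pattern was most like each enzyme were sought among 2198 named unigenes detected in all 12 libraries, by Pearson's r of log2(value + 1). This is a description over 12 libraries in 4 groups, which share their normalization and the diet contrast, so the r within the 6 ND and the 6 HFD libraries stands beside it. For Ehhadh the nearest 2 were Cyp4a10 (r = 0.96; 0.40 within ND and 0.997 within HFD) and L3hypdh (0.96; 0.38 and 0.99). Cyp4a10 was nearest to Inmt (0.98; 0.82 and 0.99), followed by L3hypdh (0.97; 0.30 and 0.99) and Notum (0.96; 0.63 and 0.98).

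For ACOT1 the nearest were Cyp2d4 (r = 0.99; 0.92 within ND and 0.98 within HFD), Gys2 (0.98; 0.66 and 0.98) and Acsm1 (0.98; 0.79 and 0.99). Acsm1 was nearest to RGL2 (0.99; 0.86 and 0.99), Gckr (0.99; 0.93 and 0.98) and Cyp2d4 (0.98; 0.84 and 0.98). Hence the gene nearest to Ehhadh was Cyp4a10, and Acsm1 was among the 3 nearest to ACOT1. The lowest r between 2 of the 4 enzymes was that of Cyp4a10 with Acsm1 (0.81 over 12 libraries, -0.12 within ND and 0.98 within HFD), which are the ones whose diet estimates at 4 weeks had opposite signs and lay farthest apart.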

How the data were processed

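Liver RNA of 18 gerbil libraries was assembled with Trinity 2.4.0, per the labels' protocols, and the longest transcript of a cluster was kept as the unigene. The submitters' processing notes name Salmon and edgeR without a role. The deposited values are an expression score per unigene whose unit the authors do not state; column sums ran from 157561 to 158005 and the sorted values were nearly the same in all libraries. Counts were not used, so depth is unknown and no count test was run. RNA integrity was above 7, per the labels. The sources used here name no genome build, so no coordinates or sequences are printed.

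Values were taken as log2(value + 1) for 9487 unigenes with a mean of at least 1 and fitted with limma 3.58.1 in R 4.3.3, with trended variances, to the 4 groups of 4 and 16 weeks together. Benjamini-Hochberg adjustment ran over all unigenes and the threshold was 0.05. The procedure was tested on simulated data. The 4 enzymes, the gene lists and the tests were chosen with earlier results of these data known. Named genes were the 4 enzymes, the tested genes of the pathway and marker lists, and the 3 genes nearest to each enzyme by Pearson's r; some of these are not reported here.

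Library numbers come from the labels. Deviations from the group means of same-numbered HFD 4W and HFD 16W libraries correlated at 0.397, 0.180 and 0.117, all above 0.1, so a block within HFD was added after seeing the data; other group pairs ran from -0.043 to 0.036. Alternatives were other pseudocounts and filters, median-ratio rescaling, no variance trend, values summed by gene name, each time alone, a replicate block, and leaving out each library or the HFD libraries numbered 1. Gerbil gene names were compared with RefSeq, which holds Ehhadh and Acsm1 but neither ACOT1 nor Cyp4a10.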

Additional observations from a re-analysis of the deposited data

Results flagged for a closer look

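The effect of the diet differed between 4 and 16 weeks, by a test of the difference itself in limma, for 3 of the 4 enzymes. The log2 difference at 16 weeks minus that at 4 weeks was -3.40 for Cyp4a10, -2.02 for Acsm1 and -1.76 for ACOT1. Of all unigenes tested, 4.61% were called in this direction. Cyp4a10 had opposite signs at the 2 times (0.77 and -2.63), while both estimates were below 0 for Acsm1 (-1.65 and -3.67) and ACOT1 (-0.67 and -2.44). At 4 weeks the diet difference was not called for Cyp4a10 (limma adjusted p = 0.398) or for ACOT1 (0.0794). Without the HFD libraries numbered 1, Cyp4a10 (limma adjusted p = 0.0819) and Acsm1 (0.0678) lost their calls for the difference between the times.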

How the results depend on the processing

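All 4 falls at 16 weeks, all 4 falls over time in HFD and the fall of Acsm1 at 4 weeks kept their direction and their call under every alternative run. Leaving out single libraries gave log2 differences at 16 weeks of -2.54 to -1.40 for Ehhadh, -2.67 to -2.18 for ACOT1, -3.36 to -2.02 for Cyp4a10 and -4.06 to -3.27 for Acsm1. The replicate block over all groups changed no call of the 4 enzymes (limma adjusted p for Acsm1 0.00999 at 4 weeks and 4.05e-05 at 16 weeks). The block within HFD changed 1, that of ACOT1 at 4 weeks, which became called (adjusted p = 0.0346). Leaving out single libraries gave -0.22 to 0.26 for Ehhadh at 4 weeks and -0.14 to 0.39 for Cyp4a10 over time in ND. The sign of Ehhadh at 4 weeks turned to -0.22 without ND 4W 3 and -0.03 without HFD 4W 2. For Cyp4a10 over time in ND it turned to -0.14 without ND 4W 3 and -0.11 without ND 16W 1. None of these was called, and the cause was not tested. ACOT1 at 4 weeks (-0.67) became called in 5 alternatives, with leave-one-out values of -0.79 to -0.56. The Ehhadh difference of diet effects became called at -1.997 with a mean of at least 5 (adjusted p = 0.0431). Of the 12 fits that left out a library, with values of -2.62 to -1.48, it was called in 1, that without HFD 16W 3. Without the HFD libraries numbered 1 those of Cyp4a10 (-3.29) and Acsm1 (-2.11) lost their calls, with fewer samples.

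Counts of called unigenes moved more. With a mean of at least 5, which tests fewer unigenes, they were 286 higher and 327 lower at 4 weeks (main 464 and 685), 519 and 639 at 16 weeks (1451 and 1889), 323 higher for the difference (522), 54 and 71 over time in ND (20 and 16) and 433 and 481 over time in HFD (872 and 738). With the block within HFD they were 841 higher at 4 weeks, and 8 and 3 over time in ND, where the block over all groups gave 6 higher. Without the HFD libraries numbered 1 they were 255 and 200 for the difference, 6 and 6 in ND and 517 and 414 in HFD. Over time in ND a pseudocount of 5 gave 75 and 74, a pseudocount of 0.1 gave 32 lower, no filter gave 6 and 8, and no trend 13 and 9. Leaving out single libraries gave 257 to 593 higher and 453 to 675 lower at 4 weeks, 1042 to 1521 and 1421 to 1902 at 16 weeks, 298 to 505 and 292 to 435 for the difference, 0 to 125 and 0 to 108 in ND and 525 to 913 and 456 to 780 in HFD. Median-ratio rescaling moved the median of all unigenes from -0.03 to 0.10 at 4 weeks and from -0.12 to 0.01 at 16 weeks. Depth is unknown, so what it limits could not be computed.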
